A study of Mus musculus with 2 samples.

Results

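The genes described are the subunits of the mouse proteasome, taken by their symbols: every gene of the deposited tables named Psma, Psmb, Psmc or Psmd followed by a number. The rule found 40 genes among the 30052 symbols, the same 40 in both libraries, and no symbol marked as a pseudogene. They are 7 subunits of the outer (alpha) ring of the core particle, Psma8 (the germ cell paralogue of the alpha ring subunit Psma7), 7 subunits of the inner (beta) ring, 4 immune or thymus beta subunits, 6 ATPases of the base of the regulatory particle, 11 further subunits of its base and lid, and 3 chaperones that help to assemble the base. The last, Psmc3ip, shares the prefix because its protein was found to interact with Psmc3. It encodes a partner of the meiotic recombinase Dmc1 and is no subunit, so it is given apart.

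The study profiled single cells of adult mouse testis in 2 droplet libraries, of wild-type and of Nsun7 knockout testis. Nsun7 belongs to a family of RNA cytosine methyltransferases. The allele, the strain and the number of animals behind each library were not given in the sources used here. With 1 library per genotype no test between genotypes was possible: values are given with 95% intervals that cover counting error only, and animal, library and genotype cannot be told apart.

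The proteasome degrades proteins tagged with ubiquitin. Its core particle is a barrel of 4 stacked rings, in which 3 of the beta subunits (Psmb5, Psmb6 and Psmb7) cut peptide bonds, and its regulatory particle recognises the ubiquitin chain, unfolds the protein with a ring of 6 ATPases and feeds it into the barrel. In cells stimulated by interferon and in immune cells, Psmb8, Psmb9 and Psmb10 take the place of the 3 cutting subunits. In the testis Psma8 takes the place of Psma7 in meiotic and later germ cells, and male mice without Psma8 are known to be infertile, with arrest in meiosis. The regulatory particle can also be replaced by the activator Psme4 (PA200), which is abundant in testis.

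The tables held 16376 wild-type and 16837 knockout barcodes, of which 15139 and 13869 passed the filters, with a median of 8723 and 12020 counts per cell. The 2 libraries shared 2168 barcode names, and whether a shared name marks the same barcode sequence is not known. Nsun7 stood at 173.9 CPM (counts of a gene per 1000000 counts) over the wild-type library and at 40.9 over the knockout library, and at 221 and 52.0 CPM in late spermatocytes, so it was lower but not at 0 in the library labelled knockout; whether the counted reads lie in the deleted region is not given in the sources used here. Cells were clustered without the 40 genes and without Nsun7, and clusters were called by marker genes, so every class name below stands for cells like that type: spermatogonia-like (989 wild-type and 400 knockout cells), early (187 and 63) and late spermatocyte-like (4204 and 1460), round (2039 and 1868) and elongating spermatid-like (4702 and 7819), Sertoli-like (666 and 576), Leydig-like (327 and 347), macrophage-like (237 and 182) and stroma-like cells (295 and 140). A further 1493 and 1014 cells stayed unnamed. The level of a gene in a class is its counts summed over the cells of that class, in CPM of the class total. The knockout late spermatocytes were shallow, with a median of 4035.5 counts per cell against 11188.5 in wild type, and elongating spermatids fell into different clusters in the 2 libraries: clusters 2, 6, 8 and 12 held 5826 of the knockout and 149 of the wild-type cells, and clusters 7, 17 and 19 held 2672 of the wild-type and 120 of the knockout cells.

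Psma7, the alpha ring subunit found in most cells, and Psma8, its germ cell paralogue, stood in opposite order in spermatogonia and in spermatocytes of both libraries. Psma7 (chr2:180036374-180042433, minus strand, GRCm38) stood in the wild-type library at 405.9 CPM in spermatogonia, 39.3 in early spermatocytes, 15.9 in late spermatocytes, 13.5 in round spermatids and 11.9 in elongating spermatids. In the knockout library the same 5 classes gave 408.1, 20.6, 14.1, 10.2 and 6.17 CPM. The level in late spermatocytes was 25.5-fold below that in spermatogonia in wild type and 29.0-fold below it in the knockout. Psma8 (chr18:14706151-14762301, plus strand, GRCm38) ran the other way at first: in wild type it stood at 35.7 CPM in spermatogonia (95% Poisson interval 31.5 to 40.3), 340.7 in early spermatocytes (308 to 376) and 148.1 in late spermatocytes (145.5 to 150.7). It then stood at 23.6 CPM in round spermatids (21.9 to 25.3) and 9.60 in elongating spermatids (8.89 to 10.4). Early spermatocytes were thus the highest of the 5 wild-type classes, with intervals that overlap none of the others. The late class pooled unlike clusters, from 65.5 CPM in cluster 1 to 311.4 in cluster 15 of the wild type. The interval of cluster 15 (303.8 to 319.2) overlaps that of the early spermatocytes. In the knockout, cluster 15 stood at 284.5 CPM (262.4 to 308.0), inside the early spermatocyte interval given next. In the knockout Psma8 stood at 30.3 CPM in spermatogonia (24.7 to 36.9), 291.7 in early spermatocytes (240.4 to 350.7), 114.1 in late spermatocytes (108.7 to 119.8), 13.8 in round spermatids (12.4 to 15.4) and 4.72 in elongating spermatids (4.37 to 5.10). The order of the 5 classes was the same in both libraries, with early spermatocytes 9.53-fold above spermatogonia in wild type (8.14 to 11.2) and 9.61-fold above them in the knockout (7.28 to 12.7).

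**Figure D1:**
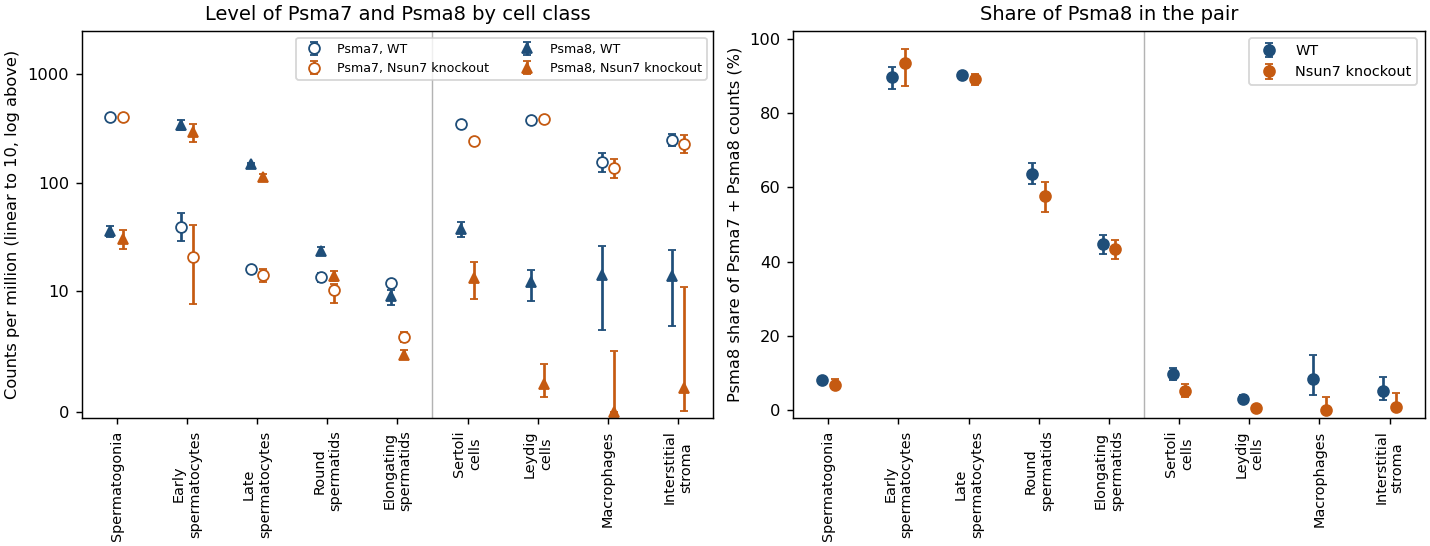
Left, summed CPM of Psma7 and Psma8 (log axis above 10, linear below) along the 5 germ cell classes of each library; right, the Psma8 share of the counts of the pair in percent, with exact binomial 95% intervals. The share goes from 8.09% (wild type) and 6.92% (knockout) in spermatogonia to 90.3% and 89.0% in late spermatocytes.

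The pair can be read as a share that does not depend on how a class is scaled: the Psma8 counts among the counts of Psma7 and Psma8 together. Counts were not divided by transcript length, so this is a share of counts and not of molecules of protein. In wild type the share was 8.09% in spermatogonia (exact binomial 95% interval 7.18 to 9.08), 89.7% in early spermatocytes (86.4 to 92.3), 90.3% in late spermatocytes (89.8 to 90.8), 63.6% in round spermatids (60.8 to 66.4) and 44.7% in elongating spermatids (42.1 to 47.2). In the knockout it was 6.92% (5.67 to 8.35), 93.4% (87.4 to 97.1), 89.0% (87.5 to 90.4), 57.5% (53.4 to 61.5) and 43.4% (40.8 to 45.9). Early and late spermatocytes did not differ beyond their intervals within either library, whereas the step from spermatogonia and the step to round spermatids were larger than the intervals. The intervals of the 2 genotypes overlapped in each of the 5 classes, which does not show that the shares were equal. Within single clusters of these classes they lay apart in cluster 4 alone, an elongating spermatid cluster with 880 and 806 cells. Its share was 28.6% in wild type (24.6 to 32.8) and 18.2% in the knockout (14.6 to 22.2). Single clusters placed the step more finely. In cluster 10, led by the meiotic entry gene Stra8 and left unnamed, the share was 16.3% in wild type and 13.2% in the knockout, with Psma7 at 176.4 and 183.4 CPM and Psma8 at 34.4 and 27.8 CPM. Cluster 24, the early spermatocytes, stood at 89.7% and 93.4%. Of the late spermatocyte clusters, cluster 15 stood at 93.1% and 93.1%, cluster 5 at 91.1% and 87.9%, and cluster 14 at 89.3% and 87.6%. Cluster 1, with 1515 and 579 cells, stood at 83.3% (81.8 to 84.8) and 85.3% (81.7 to 88.3), in wild type below the interval of cluster 24. The round spermatid clusters stood at 72.0% and 70.3% (cluster 0) and at 43.5% and 41.4% (cluster 3). Psma7 was thus already lower in the Stra8-led cells than in spermatogonia while Psma8 was still at the spermatogonial level. With a finer clustering (resolution 2) the early spermatocyte class took in other cells and its share was 67.5% in wild type and 56.8% in the knockout, so the value of that class depends on where its border lies.

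Transcripts free in the droplet fluid add counts of abundant germ cell genes to other cells, and they were measured with the markers of Leydig cells, which germ cells should lack. That estimate put the part of the Psma8 level that free RNA could give at 8.44 CPM in wild-type spermatogonia and 1.20 in knockout spermatogonia, at 4.54 and 0.92 in late spermatocytes and at 5.85 and 0.93 in elongating spermatids. The spermatocyte level was far above it. In elongating spermatids the Psma7 level of 11.9 and 6.17 CPM stood against an estimate of 4.03 and 1.91, and the Psma8 level of 9.60 and 4.72 CPM against the estimate given above. With that estimate subtracted, the Psma8 share of the pair in elongating spermatids was 32.3% in wild type and 47.1% in the knockout. Psma8 in somatic cells stood at or below the level of spermatogonia except in wild-type Sertoli cells: Leydig cells gave 12.2 CPM in wild type (9.21 to 15.8) and 2.30 in the knockout (1.23 to 3.94), macrophages 14.2 and 0 CPM, and stroma 13.8 and 1.96 CPM. In Sertoli cells it stood at 37.5 and 13.3 CPM. Estimates of free RNA from spermatid markers were 10.2 and 1.53 CPM in Leydig cells, 56.5 and 9.19 in macrophages, 10.8 and 1.70 in stroma and 30.1 and 9.33 in Sertoli cells. The Psma8 level lay below that estimate in macrophages and a little above it in the other 3 classes. From Leydig markers the estimate in Sertoli cells was 9.54 and 1.69 CPM. Thinned to 1000 counts per cell, a depth that every cell reached, Psma8 was seen in 12.9% of wild-type and 10.5% of knockout late spermatocytes, and in 1.83% and 0.29% of Leydig cells. Without thinning these shares were 62.3% and 40.7% against 8.56% and 3.46%, at median depths of 10473 and 14178 counts in the Leydig cells. Knockout macrophages held 0 Psma8 counts, which allows up to 5.08 CPM (upper exact Poisson bound).

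Psma8 was compared with other genes by its level across classes. Over 18 points (9 classes in each of 2 libraries, where the classes of a library share its free RNA), Pearson's r of the log2 levels among 8812 genes was highest for Ccdc117 (0.973), Cntd1 (0.970, a factor of crossover maturation), Terb1 (0.969, which ties telomeres to the nuclear envelope in meiosis), Tcam1 (0.966) and Sycp2 (0.963, a component of the chromosome axis). Among the other 39 symbols it was highest for Psmc3ip (0.820) and Psmd2 (0.758), and it was -0.33 for Psma7 and -0.36 for Psma6. These are descriptions over few points of 2 libraries.

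In summed CPM, the constitutive core particle stood lower in every later germ cell class than in spermatogonia, which depends on the scaling taken up below. The fall was not steady: the alpha ring sum was 794 CPM in late spermatocytes and 1112 in elongating spermatids of the wild type. In the knockout it was 798 and 1126 CPM. Relative to spermatogonia, 5 of the 7 alpha ring genes were at least 2-fold lower in late spermatocytes in each library and 0 were higher, beside 37.6% and 38.5% of all genes lower and 25.8% and 26.9% higher (wild type, then knockout). Their median log2 ratio was -1.96 in wild type and -1.85 in the knockout, against -0.37 and -0.34 for all genes. All log2 ratios here were computed after adding 5 CPM to each level. The exceptions among the 7 alpha ring genes were Psma3 and Psma6. Psma4, the alpha ring gene with most counts in spermatogonia, stood at 537.3 CPM there and 160.2 in late spermatocytes of the wild type, and at 529.8 and 143.6 in the knockout. Psma2 stood at 469.9 and 86.6 CPM in wild type and at 457.3 and 75.0 in the knockout, 5.43-fold and 6.10-fold lower. Psma3 was lower by less than that, with 309.7 and 230.1 CPM in wild type and 320.6 and 211 in the knockout.

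Psma6, also an alpha ring subunit, was the exception in spermatids. In the wild type it stood at 294 CPM in spermatogonia, 307.4 in early spermatocytes, 183 in late spermatocytes, 574.3 in round spermatids and 1047 in elongating spermatids. The knockout gave 310.1, 330.4, 238.9, 673.7 and 1095 CPM. It was the only core particle gene that was higher in elongating spermatids than in spermatogonia by at least 2-fold, at 3.56-fold in wild type (3.41 to 3.72) and 3.53-fold in the knockout (3.32 to 3.76). Its counts made up 11.4% and 12.3% of the alpha ring counts, Psma8 included, in spermatogonia, where shares are given for wild type and then knockout. They made up 64.4% and 76.2% of them in round spermatids, and in elongating spermatids 93.4% and 96.9%. Psma6 lies at chr12:55384222-55418454 (plus strand, GRCm38).

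The beta ring behaved like the alpha ring without such an exception. Psmb1, a beta subunit that does not cut and the gene with most counts of the 40 in spermatogonia, stood in wild type at 764.2 CPM there, 173.7 in late spermatocytes, 20.1 in round spermatids and 13.1 in elongating spermatids. The knockout gave 828.4, 151.2, 13.4 and 5.81 CPM. Its ratio of spermatogonia to elongating spermatids, 58.5 in wild type and 142 in the knockout, was the widest of the beta ring. Psmb2 and Psmb3, also without cutting activity, were 6.54-fold and 6.45-fold lower in wild-type late spermatocytes than in spermatogonia, and 6.46-fold and 7.02-fold lower in the knockout. Psmb6, which cuts after acidic residues, stood apart until the round spermatids: 366.7 CPM in spermatogonia, 428.1 in late spermatocytes, 311 in round and 40.3 in elongating spermatids of the wild type, and 377.1, 396.8, 195.8 and 21.8 CPM in the knockout. It made up 36.6% and 36.3% of the beta ring counts in late spermatocytes and 49.1% and 48.0% in round spermatids. Psmb5, which cuts after hydrophobic residues, and Psmb7, which cuts after basic residues, stood at 77.5 and 202.2 CPM in wild-type late spermatocytes and at 74.7 and 190.1 CPM in the knockout, against 162.3 and 394.1 CPM in wild-type and 141.2 and 370.8 CPM in knockout spermatogonia. In the 7 genes as a whole 5 were at least 2-fold lower in wild-type late spermatocytes and 4 in the knockout, and 0 were higher. Their median log2 ratio was -1.51 and -1.49, against -0.37 and -0.34 for all genes. Of all genes 37.6% and 38.5% were lower.

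In the ATPase ring the 6 genes parted. Psmc3 (chr2:91054009-91066369, plus strand; it overlaps Slc39a13 on the other strand, and no source used here says whether the counting took strand into account) stood in wild type at 460.8 CPM in spermatogonia, 248.4 in early spermatocytes, 1223 in late spermatocytes, 753.1 in round spermatids and 202.4 in elongating spermatids. The knockout gave 414.4, 154.9, 1204, 601.9 and 166.4 CPM. Late spermatocytes were 2.65-fold above spermatogonia in wild type (2.57 to 2.75) and 2.91-fold above them in the knockout (2.75 to 3.07), and Psmc3 made up 57.2% and 56.9% of the counts of the 6 ATPases there. Psmc2 (chr5:21785283-21803787, plus strand) peaked later: 239.8 CPM in spermatogonia, 555.4 in late spermatocytes, 702.2 in round and 487 in elongating spermatids of the wild type, and 246.7, 585.1, 693.4 and 561 CPM in the knockout. It was 2.03-fold above spermatogonia in wild-type elongating spermatids and 2.27-fold above them in the knockout, where it made up 66.6% and 74.8% of the ATPase counts. Psmc1, Psmc4 and Psmc6 went the way of the core particle, at 98.2, 60.0 and 42.4 CPM in wild-type late spermatocytes against 284.9, 187.1 and 244.4 in spermatogonia. Psmc5 was lower by less than 2-fold, from 265.6 to 157.6 CPM in wild type and from 232.9 to 151.9 in the knockout. The 6 proteins sit in the ring in equal number, so the counts of these genes did not run in that proportion in germ cells, within the limit that counts are not scaled by length.

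Of the other 11 subunits of the lid and base 2 were at least 2-fold lower in late spermatocytes and 0 were higher in each library, beside 37.6% and 38.5% of all genes lower and 25.8% and 26.9% higher. Their median log2 ratio was -0.40 and -0.45, the smallest shift of the groups of constitutive subunits and near the -0.37 and -0.34 of all genes. The lower pair was Psmd1, a scaffold of the base, at 328.1 and 137 CPM in wild type and 333.5 and 126.9 in the knockout, and Psmd14, the enzyme that cuts the ubiquitin chain off, at 223.5 and 71.3 CPM in wild type and 197.4 and 62.6 in the knockout. Psmd2, the other scaffold of the base and the lid and base gene with most counts in spermatogonia, stood at 441.5 and 305.9 CPM in wild type and at 447.1 and 321.7 in the knockout. Psmd8, a lid subunit, was the only gene of this group that kept its spermatogonial level into elongating spermatids, at 198.9, 374.3, 254.3 and 212.3 CPM in wild type (spermatogonia, late spermatocytes, round and elongating spermatids) and 179.7, 361.5, 254.6 and 231.1 CPM in the knockout. It made up 51.4% and 62.6% of the counts of the 11 genes in elongating spermatids. Psmd4, the ubiquitin receptor, stood at 272.5, 251.1, 143 and 65.2 CPM in wild type and at 265.9, 234.9, 131.7 and 54.0 in the knockout. Psmd7, another lid subunit, was highest outside the germ cells, with 405.7 and 295.3 CPM in Sertoli cells. Of the 3 assembly chaperones Psmd5 was lowered most, from 195.2 to 19.6 CPM in wild type and from 200.4 to 17.0 in the knockout, whereas Psmd9 stood at 49.0 and 55.4 CPM in wild type and at 40.3 and 52.5 in the knockout, and Psmd10 at 37.5 and 16.6 CPM in wild type and 31.8 and 20.7 in the knockout. Psmc3ip (chr11:101091823-101095436, minus strand), the meiotic recombination factor, stood at 103.7, 294.6, 398, 250.8 and 57.7 CPM from spermatogonia to elongating spermatids of the wild type and at 87.1, 242.7, 382.2, 190.3 and 51.7 CPM in the knockout; its locus overlaps Mlx on the other strand.

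**Figure D2:**
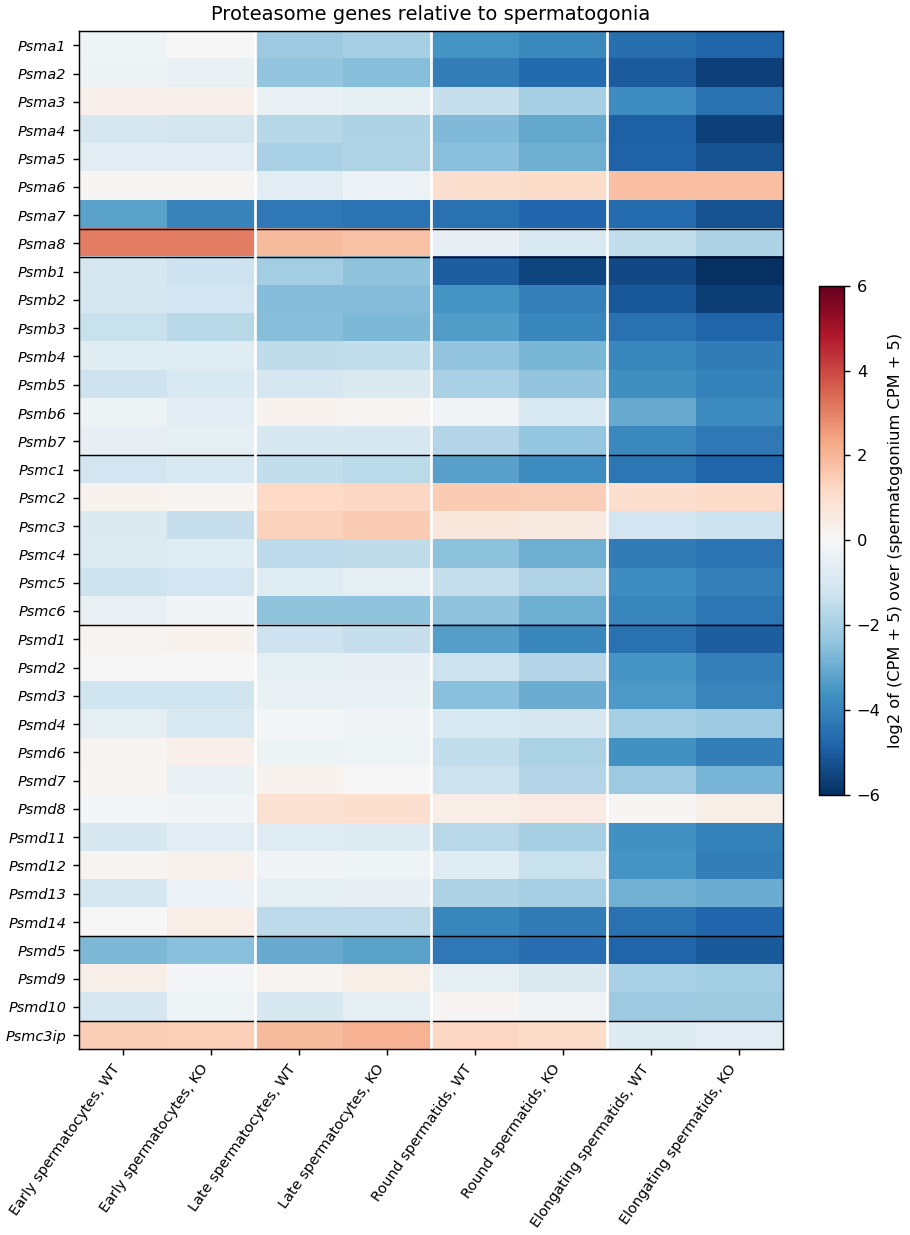
Log2 ratio of each germ cell class to spermatogonia of the same library (after adding 5 CPM) for 36 symbols with enough counts, in blocks by role, wild type and knockout side by side. Most rows turn blue (lower) by the elongating spermatids, whereas Psma6, Psmc2 and Psmd8 do not.

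Counted over all roles, 37 of the 40 symbols had a mean of at least 10 CPM in spermatogonia and late spermatocytes; Psmb8, Psmb9 and Psmb11 did not. Since nothing could be tested, counts are read against the share of all genes past the same fold. In late spermatocytes 4 were at least 2-fold higher than in spermatogonia and 17 lower in wild type, and 4 were higher and 16 lower in the knockout. Of all genes measured 25.8% were higher and 37.6% lower in wild type, and 26.9% and 38.5% in the knockout, so the share of members that were higher lay below that of all genes and the share that were lower lay near it. The 4 higher genes were Psma8, Psmc2, Psmc3 and Psmc3ip in both libraries, and 16 of the lower genes were shared. In early spermatocytes 2 were higher and 12 lower in wild type (all genes 13.3% and 21.2%), and 2 were higher and 10 lower in the knockout (14.4% and 22.7%). Psma8 and Psmc3ip were the higher genes in both; the farthest lower ones were Psma7, Psmd5, Psmb10 and Psmb3. In round spermatids 2 were higher and 26 lower in wild type (30.5% and 44.4%), and 3 and 27 in the knockout (29.5% and 49%). In elongating spermatids 2 were higher, Psma6 and Psmc2, and 33 lower in each library (18.7% and 64.8% of all genes in wild type, 20.4% and 66.5% in the knockout). Here the members' share of lower genes was above that of all genes, and the median log2 ratio was -3.70 and -4.13 against -2.05 and -2.28 for all genes.

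From each class to the next, the members did not leave together. Between late spermatocytes and round spermatids 2 of 36 were at least 2-fold higher in wild type, Psma6 and the chaperone Psmd10, and 12 were lower (all genes 25.4% and 29.7%). In the knockout 1 of 36 was higher, Psma6, and 27 were lower (23% and 39.6%). The farthest lower ones were the same in both libraries: Psmb1, Psma8, Psmd14, Psmd3 and Psmd1. Between round and elongating spermatids 0 of 32 were higher and 24 lower in wild type (6.38% and 53.1%), and 0 of 27 were higher and 22 lower in the knockout (2.5% and 48.1%). Psmb6 and Psmd12 were the farthest lower ones of this second step in both. Psmb6 went from 311 to 40.3 CPM in wild type and from 195.8 to 21.8 in the knockout, and Psmd12, a lid subunit, from 127.2 to 13.3 and from 78.9 to 6.99. Psmb1 had reached 20.1 and 13.4 CPM by the round spermatids, so these beta ring genes differed in the class at which their level was lost. The members within 2-fold in both libraries at this step were Psma6, Psmc2 and Psmd8.

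A level in CPM depends on what else the cells hold. Scaling by the trimmed mean of M-values (TMM), which assumes that most genes do not change, moved all log2 ratios to spermatogonia by 0.87 in wild-type and 0.72 in knockout late spermatocytes, by 0.76 and 1.20 in round and by 2.18 and 2.97 in elongating spermatids. With it, 7 genes were higher and 10 lower in wild-type late spermatocytes (all genes 39.1% and 26.7%), and 6 were higher and 11 lower in the knockout (36.7% and 29.6%). Psmb6, Psmd7 and Psmd8 joined the higher genes in wild type, and Psmd8 and Psmd9 in the knockout. In round spermatids 5 were then higher in each library, Psma6, Psmc2, Psmc3, Psmc3ip and Psmd8, with 20 lower in wild type (all genes 38% higher and 36.2% lower) and 19 in the knockout (39.8% and 36.8%). In elongating spermatids 4 were higher and 25 lower in wild type (34% and 43%), and 5 were higher and 26 lower in the knockout (37.7% and 42.4%). The order of the members among themselves, the shares of counts and the ratio of the 2 particles given next do not depend on this choice. A comparison of summed levels with spermatogonia does depend on it. In elongating spermatids the shifts of 2.18 and 2.97 would put the core particle sum above that of spermatogonia in both libraries.

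Summed over the 7 alpha and 7 beta ring genes, with Psma8 kept apart, the core particle stood at 5468 CPM in spermatogonia, 3404 in early spermatocytes, 1963 in late spermatocytes, 1502 in round and 1241 in elongating spermatids of the wild type. The knockout gave 5424, 3178, 1893, 1278 and 1204 CPM. The 17 genes of the regulatory particle summed to 4142, 3275, 4078, 2626 and 1144 CPM in wild type and to 3953, 3227, 3991, 2207 and 1119 CPM in the knockout. The counts of the regulatory particle in late spermatocytes were near their spermatogonial sum with Psmc2 and Psmc3 included; without them the sum was 3441 and 2299 CPM in wild-type spermatogonia and late spermatocytes, and 3292 and 2202 in the knockout. Their ratio was 0.757 and 0.729 in spermatogonia, 0.962 and 1.02 in early spermatocytes, 2.08 and 2.11 in late spermatocytes, 1.75 and 1.73 in round and 0.922 and 0.930 in elongating spermatids (wild type, then knockout). Without Psma6, Psmc2 and Psmc3, a choice made after the values were seen, it was 0.665 and 0.644, 0.889 and 0.984, 1.29 and 1.33, 1.26 and 1.51, and 2.35 and 3.62. The higher ratio of late spermatocytes therefore stood without the 3 genes, at a smaller size, whereas the low ratio of elongating spermatids did not. Leydig cells gave 0.684 and 0.659, near the spermatogonial ratio. In elongating spermatids 43.7% and 47.0% of all subunit counts were of Psma6, 20.3% and 24.1% of Psmc2, 8.9% and 9.9% of Psmd8 and 8.4% and 7.1% of Psmc3.

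**Figure D3:**
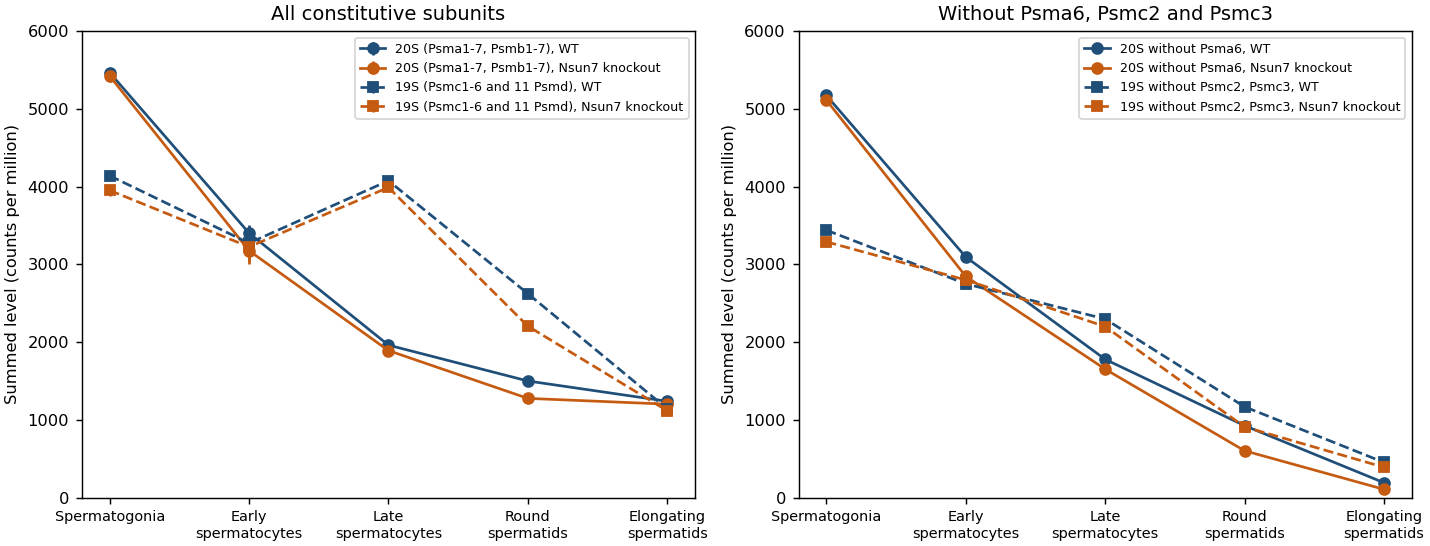
Summed CPM of the core particle and the regulatory particle along the 5 germ cell classes in each library, with all genes (left) and without Psma6, Psmc2 and Psmc3 (right). In late spermatocytes the regulatory particle stands at 4078 (wild type) and 3991 (knockout) and the core particle at 1963 and 1893.

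Promoters are shown for genes that went different ways: Psma7, farthest below its spermatogonial level in late spermatocytes, Psma2, lower with most of the alpha ring, and Psma6 and Psmc2, higher in spermatids. Sequences are the 250 bases before the RefSeq start on GRCm38.p6, 5′ to 3′ on the gene's strand, with hits of the searched motifs on either strand in capitals; bases after the start were searched but are not printed. The motifs were CCAAT (bound by NF-Y), the motif of nuclear respiratory factor 1 (GCGC, any base, then TGCGC), TGANNNNGC (the core of the antioxidant element bound by Nfe2l1 and Nfe2l2, the regulators of proteasome genes), AACNGNC (bound by MYB proteins, A-MYB being the regulator of many spermatocyte genes) and TGACGTCA (bound by CREB and CREM proteins). Psma7 lies at chr2:180042465-180042714 (minus strand), Psma2 at chr13:14612992-14613241 (plus), Psma6 at chr12:55383972-55384221 (plus) and Psmc2 at chr5:21785025-21785274 (plus).
Psma7: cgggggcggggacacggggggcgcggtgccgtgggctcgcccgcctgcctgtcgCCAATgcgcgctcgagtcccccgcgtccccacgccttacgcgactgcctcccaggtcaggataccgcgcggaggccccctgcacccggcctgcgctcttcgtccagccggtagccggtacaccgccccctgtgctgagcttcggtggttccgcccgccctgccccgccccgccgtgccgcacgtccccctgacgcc
Psma2: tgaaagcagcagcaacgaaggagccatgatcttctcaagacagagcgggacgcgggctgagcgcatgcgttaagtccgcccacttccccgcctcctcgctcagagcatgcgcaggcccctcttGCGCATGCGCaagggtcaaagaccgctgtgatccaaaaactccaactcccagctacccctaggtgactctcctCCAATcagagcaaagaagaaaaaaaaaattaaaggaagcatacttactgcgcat
Psma6: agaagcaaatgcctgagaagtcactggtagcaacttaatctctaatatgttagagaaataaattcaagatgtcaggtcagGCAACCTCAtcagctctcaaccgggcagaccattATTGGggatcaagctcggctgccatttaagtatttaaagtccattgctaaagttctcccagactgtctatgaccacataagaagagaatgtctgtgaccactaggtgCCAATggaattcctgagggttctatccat
Psmc2: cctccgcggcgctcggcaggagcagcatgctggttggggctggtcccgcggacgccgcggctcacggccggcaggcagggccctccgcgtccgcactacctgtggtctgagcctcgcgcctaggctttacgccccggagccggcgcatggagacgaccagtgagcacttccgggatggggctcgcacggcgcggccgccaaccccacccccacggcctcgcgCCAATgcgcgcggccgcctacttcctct
The capitals are a CCAAT box in Psma7; the nuclear respiratory factor 1 motif and a CCAAT box in Psma2; the antioxidant element and then 2 CCAAT boxes in Psma6; and a CCAAT box next to the start in Psmc2. No hits overlap in these 4 sequences. With the unprinted 50 bases after the start, Psma7 also held 1 antioxidant element and Psmc2 also held 1 AACNGNC. The table held 33 of the 40 genes; Psma8, Psmb1, Psmb2, Psmb7, Psmc3, Psmd3 and Psmd7 had no entry. Over windows that also take in 50 bases after the start, the nuclear respiratory factor 1 motif was in 6 of the 33 (18.2%; Psma2, Psma3, Psma4, Psmc4, Psmc5 and Psmd14) against 4.78% of all 27025 promoters. The antioxidant element was in 19 (57.6%, against 41.4%), CCAAT in 14 (42.4%, against 37.9%), AACNGNC in 15 (45.5%, against 32.8%) and TGACGTCA in 0 (against 1.88%). The nuclear respiratory factor 1 motif was in 4 of 14 genes that were lower in late spermatocytes, in 0 of 2 that were higher and in 2 of the 17 others. In the same order the antioxidant element was in 8, 1 and 10, CCAAT in 6, 2 and 6, and AACNGNC in 5, 2 and 8. A match describes letters and is no evidence of binding.

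Of the named classes, macrophages had the highest shares of the immune subunits. T and NK cell markers summed in this class to 200.1 CPM in wild type and 203.6 in the knockout. They summed to 13.8 and 11.8 in stroma and to 6.10 and 8.50 in Leydig cells. Macrophage markers summed to 15681 and 13651 CPM in the macrophage class. The part of T and NK cells in the shares was not tested. Psmb8, which replaces Psmb5, stood at 218.6 CPM in wild-type and 218.8 in knockout macrophages, 34.5 and 25.5 in stroma, 17.9 and 17.9 in Leydig cells, 1.09 and 2.70 in spermatogonia and at or below 0.194 CPM in late spermatocytes and round spermatids of both libraries. It made up 84.6% of the counts of Psmb5 and Psmb8 in wild-type macrophages (exact binomial 95% interval 78.5 to 89.5) and 91.4% in the knockout (86.2 to 95.1), against 36.1% and 31.0% in stroma and 9.51% and 9.43% in Leydig cells. Psmb9, which replaces Psmb6, made up 30.8% and 46.3% of its pair in macrophages, 3.59% and 4.13% in stroma and 1.03% and 1.03% in spermatogonia. Psmb10, which replaces Psmb7, was spread more widely: 66.7 and 70.2 CPM in macrophages, 64.4 and 49.0 in stroma, 49.0 and 53.5 in Leydig cells and 55.2 and 55.6 in spermatogonia, against 2.77 and 1.94 in late spermatocytes. Its share of the pair was 43.5% and 52.6% in macrophages and 12.3% in wild-type spermatogonia (11.2 to 13.4), inside the knockout interval of 11.3 to 14.9. Its level in late spermatocytes was 19.9-fold and 28.7-fold below that in spermatogonia. Psmb11, the thymus subunit, stood at or below 0.601 CPM in every class. The unnamed cluster 26, with 122 wild-type and 40 knockout cells led by Acta2 and Myl9, stood between macrophages and stroma for Psmb8 (65.3% and 58.8% of its pair) and Psmb9 (21.0% and 12.5%), and at 36.1% and 30.3% for Psmb10. Psmb9 overlaps Tap1, another interferon gene, on the other strand.

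Among 38 other genes of the pathway (activators, an inhibitor, core chaperones, ubiquitin, shuttle factors and regulators), 5 were at least 2-fold higher and 22 lower in wild-type late spermatocytes than in spermatogonia, of 37 measured, and 4 and 21 of 36 in the knockout (all genes 25.8% and 37.6%, and 26.9% and 38.5%). Psme4, the testis-rich activator, stood at 119 CPM in spermatogonia, 455 in late spermatocytes, 506 in round and 258 in elongating spermatids of the wild type, and at 118, 566, 462 and 280 in the knockout. Psme1, a subunit of the interferon-induced activator, stood at 117.6 and 128 CPM in spermatogonia and at 1.36 and 1.52 in late spermatocytes. Its partner Psme2 stood at 185 and 197.1 CPM and then at 1.92 and 2.36, so Psme4 ran opposite to Psme1 and Psme2 at this step. Psme3, a further activator, was also at least 2-fold lower in late spermatocytes than in spermatogonia in both libraries. It was at least 2-fold higher in round spermatids than in late spermatocytes in both. Psmf1, an inhibitor of the core particle, stood at 111.4 CPM in spermatogonia, 150.8 in late spermatocytes, 544 in round and 1315 in elongating spermatids of the wild type, and at 156, 207.1, 872 and 1617 in the knockout. Akirin2, which brings proteasomes into the nucleus, stood at 205 and 189 CPM in spermatogonia and at 504 and 507 in late spermatocytes. The polyubiquitin gene Ubb stood at 1238 and 1095 and then at 3231 and 2826 CPM. Akirin2, Psme4 and Ubb were among the genes higher in both libraries, and 21 were lower in both. The core chaperone Pomp was among the lower ones, at 249 and 279.5 CPM in spermatogonia, 95 and 80 in late spermatocytes and 16 and 9 in round spermatids.

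Between the genotypes, members were compared class by class with a threshold of 1.5-fold and a mean of at least 10 CPM. In late spermatocytes 0 of 36 were past it in either direction, where 2.93% of all genes were higher and 0.355% lower in the knockout. The ends of the range there were Psma6, at 183 and 238.9 CPM (1.31-fold higher in the knockout, 1.26 to 1.35), and Psma8, at 148.1 and 114.1 CPM (knockout over wild type 0.77, 0.73 to 0.81). The 10 elongating spermatid markers summed in late spermatocytes to 7372 CPM in wild type and 13808 in the knockout. Their part in the Psma6 ratio was not tested. Within the single late spermatocyte clusters Psma8 stood at 311.4 and 284.5 CPM in cluster 15, 174.3 and 145.5 in cluster 5, 114.5 and 106.3 in cluster 14 and 65.5 and 55.6 in cluster 1. It was lower in the knockout in each, but the clusters are parts of the same 2 libraries and no repeats. The Poisson intervals overlapped in clusters 15, 5 and 14 and lay apart in cluster 1 (62.7 to 68.5 and 50.3 to 61.3). With the same mix of clusters in both libraries the class gave 141.8 and 123.4 CPM. In cluster 1, 0 of 36 members were past the threshold (0.871% of all genes higher and 0.478% lower), in cluster 5, 0 of 35 (1.57% and 2.11%), in cluster 14, 0 of 35 (1.8% and 0.714%), and in cluster 15, 1 of 35 was lower, Psmc6 at 47.3 and 29.3 CPM (3.55% and 0.862%). In elongating spermatids Psma8 stood at 9.60 and 4.72 CPM, a log2 ratio that was -0.01 with free RNA subtracted. In spermatogonia 0 of 37 were past the threshold (all genes 1.35% higher and 2.92% lower). In early spermatocytes, with 63 knockout cells, 0 of 36 were higher and 3 lower, Psma7, Psmc3 and Psmd9, the last at 64.9 and 38.7 CPM (9.6% and 13.4%).

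**Figure D4:**
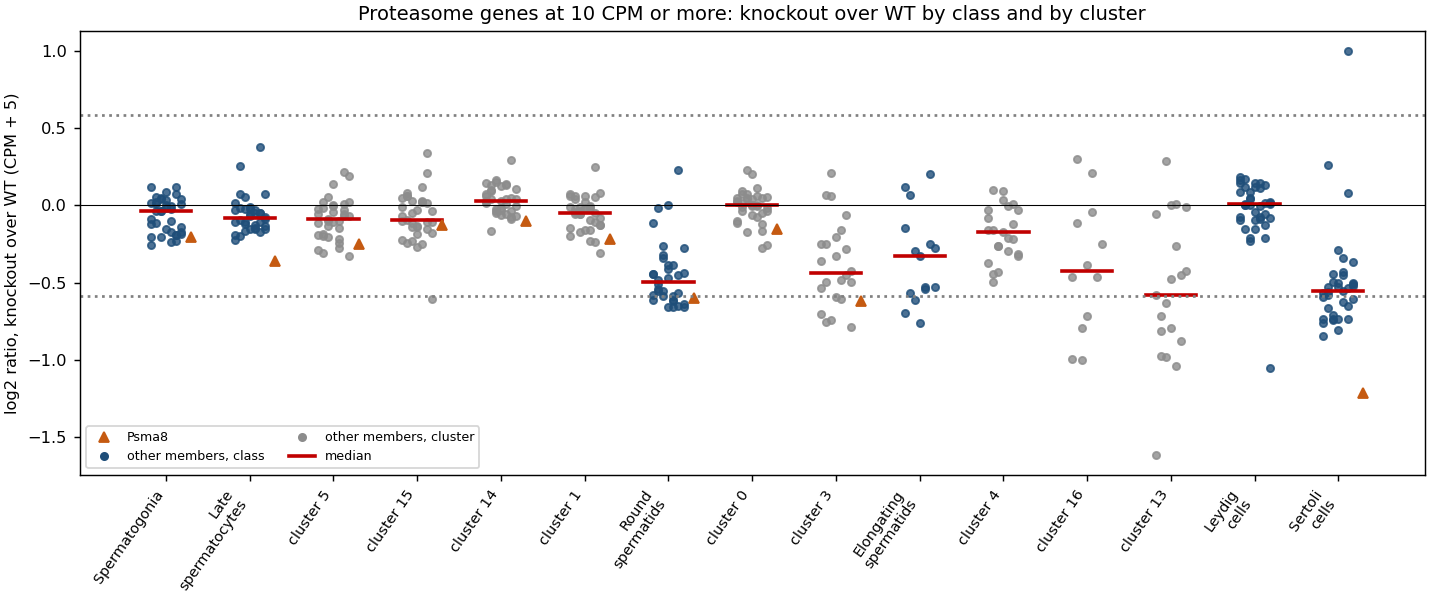
Log2 ratio of knockout to wild type (after adding 5 CPM) of each member in spermatogonia, late spermatocytes, round and elongating spermatids, Leydig and Sertoli cells (blue) and in clusters within those germ cell classes (grey), with each median in red, Psma8 as an orange triangle and dotted lines at 1.5-fold. The blue late spermatocyte points all lie inside the dotted lines, whereas 11 members of the round spermatids lie below them.

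In round spermatids 11 of 34 members were lower in the knockout and 0 higher, where 15.5% of all genes were lower and 4.99% higher. The 10 elongating spermatid markers summed in this class to 55008 CPM in wild type and 107377 in the knockout, and their part in the count was not tested. The members came from every constitutive group: Psma5 and Psma8, the beta subunits Psmb3, Psmb5, Psmb6 and Psmb7, the ATPases Psmc1, Psmc4 and Psmc6, the lid subunit Psmd12 and the chaperone Psmd9. Those farthest from 1 were Psmc6, at 42.0 and 24.8 CPM, Psmd12, at 127.2 and 78.9, Psmc4, at 30.0 and 17.2, Psmb6, at 311 and 195.8, and Psmb7, at 113.7 and 71.2. The count differed between the 2 clusters of the class. Cluster 0, with 1373 wild-type and 804 knockout cells, had 0 of 35 past the threshold (0.111% of all genes higher and 0.606% lower) and a median log2 ratio of 0.00. Cluster 3, with 666 and 1064 cells, had 7 of 24 lower and 0 higher (11.7% of all genes lower and 0.063% higher): Psma3, Psma7, Psma8, Psmb1, Psmb6, Psmc1 and Psmd12. With the same mix of both clusters in each library 0 members were past the threshold, and with TMM scaling 1 was higher (Psma6) and 0 lower. Cluster 3 made up the smaller part of the wild-type and the larger part of the knockout class, and levels were lower in it: Psma8 stood at 29.1 and 25.8 CPM in cluster 0 and at 13.4 and 6.95 in cluster 3.

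In elongating spermatids 3 of 15 members were lower in the knockout and 0 higher (7.71% and 0.0215% of all genes): Psma3 at 18.7 and 9.63 CPM, Psmb6 at 40.3 and 21.8 and Psmd12 at 13.3 and 6.99. In cluster 4, which held 880 wild-type and 806 knockout cells, 0 of 23 were past the threshold, in cluster 16 4 of 12 were lower and in cluster 13 9 of 19 were lower, where 4.35%, 11.6% and 18.3% of all genes were lower and 0.7%, 2.75% and 1.94% higher. Psma6, Psmc2 and Psmd8, the genes high in these cells, stood at 1047 and 1095, 487 and 561, and 212.3 and 231.1 CPM, ratios inside the threshold. In the wider list 8 of 28 genes were lower and 3 higher in knockout round spermatids (Psme3, Psmf1 and Ubqlnl), beside 15.5% and 4.99% of all genes.

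In Sertoli cells 1 of 36 members was higher in the knockout, Psma6 at 346.6 and 696.3 CPM, and 15 were lower, among which Psma8, Psmd1, Psmd12, Psmd3 and Psma3 were farthest from 1; of all genes 11.5% were higher and 44.6% lower. Spermatid markers summed there to 38169 CPM in wild type and 113030 in the knockout, and Sertoli markers to 12753 and 7484. The part of these germ cell counts in the result was not tested. With TMM scaling 3 were higher there, Psma6, Psmc2 and Psmd8, and 1 lower, Psma8 (18.9% and 10.3%). In macrophages 0 of 38 were higher and 9 lower (7.67% and 23.5%), a share near that of all genes, with spermatid markers at 71497 and 111301 CPM. With TMM scaling 3 were higher and 4 lower there (16.1% and 13.8%). In Leydig cells and in stroma 1 was lower, Psmc3ip, and 0 higher (0.783% and 5.9% of all genes in Leydig cells, 7.96% and 12.8% in stroma). Psmc3ip stood at 28.08 CPM in wild-type and 10.98 in knockout Leydig cells, against free RNA estimates from spermatid markers of 32.67 and 9.34. In stroma it stood at 28.76 and 15.68 CPM, from 25 and 8 counts, against estimates of 34.54 and 10.39. The part of free RNA in these ratios was not tested.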

How the data were processed

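Testis cells of adult wild-type and Nsun7 knockout mice were captured in droplets, in 1 library per genotype, with the DNBelab C system, per the labels' protocols. The authors deposited raw counts per gene and cell as a sparse matrix for each library, made with PISA 0.12 on GRCm38, per the submitters' processing notes. The aligner, annotation, strand setting and barcode filter were not stated in the sources used here, and the counts were taken to be of distinct molecules. The counts summed to 220247156 in wild type and 210531446 in the knockout.

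Cells were kept where they had 200 or more genes and no more than 20% of counts from mitochondrial genes. Both libraries were clustered together with scanpy 1.11.5 (3000 variable genes per library without the 40 genes and Nsun7, 40 components, 20 neighbours, Leiden resolution 1; igraph 0.11.9), giving 27 clusters. Clusters were named from marker lists, and some were left unnamed. In cluster 1 (late spermatocytes) and cluster 3 (round spermatids) 10 listed markers were detected, but 0 of them were among the 10 leading genes of the cluster. Scrublet marked 600 wild-type (3.96%) and 622 knockout cells (4.48%) as doublets; they were kept. Raw counts were summed per class and library and divided by the class total (CPM). Intervals are exact Poisson for levels, exact binomial for shares and conditional binomial for ratios. Log2 ratios use a prior of 5 CPM, genes need a mean of 10 CPM, and a gene is called past 1.5-fold between genotypes or 2-fold between classes. Genes named are those past these folds (the 5 farthest each way where there are over 10) and the gene with most counts in each role. The code was tested on simulated data.

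The alternatives were a stricter cell filter, doublets left out, resolution 2, clustering with the 40 genes or of each library alone, free RNA subtracted, other priors and minimums, TMM scaling and the same mix of clusters. Gene locations are from GENCODE M21 and promoters from RefSeq (GRCm38.p6). The genes, lists and thresholds were chosen with earlier results of these data known. Analyses used Python 3.11.15, numpy 2.4.6, scipy 1.17.1 and pandas 2.3.3.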

Additional observations from a re-analysis of the deposited data

How the results depend on the processing

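Each count and share was recomputed under up to 13 alternatives. In late spermatocytes the count of members past 1.5-fold between genotypes was 0 in both directions under all of them. The 11 members lower in knockout round spermatids ranged from 0 to 15: they became 15 with a prior of 1 CPM, 2 with clustering at resolution 2, 0 with each library clustered alone, 5 with free RNA subtracted, 1 with a prior of 20 CPM, 3 with a minimum of 50 CPM, 0 with TMM scaling and 0 with the same mix of clusters; TMM scaling gave 1 higher. The 3 lower in elongating spermatids became 6 with each library alone, 0 with free RNA subtracted, 7 with a prior of 1 CPM, 0 with a prior of 20, 0 with a minimum of 50, 11 with no minimum, 0 with TMM scaling and 1 with the same mix. With TMM scaling 7 members were higher and 10 lower in wild-type late spermatocytes than in spermatogonia, in place of 4 and 17. The Psma8 share of the pair in late spermatocytes, 90.3% in wild type, was 91.2% at resolution 2, 91.0% with the members among the clustering genes, 91.3% with the library alone and 91.8% with free RNA subtracted; in the knockout 89.0% became 90.5% at resolution 2. The log2 ratio of Psma7 between genotypes turned from below 0 to 0.018 in early spermatocytes at resolution 2 and to 0.082 in elongating spermatids with the same mix. That of Psma8 in early spermatocytes, -0.22 as reported, was 1.88 with each library clustered alone and -0.61 at resolution 2. The causes were not tested. Of 136 recomputed values of the main counts and shares 113 stayed within 1.5 times or the interval and 23 did not; of the other values 215 did, 62 did not and 2 turned in direction. The runs without the low-count late spermatocyte cluster and without Psma6, Psmc2 and Psmc3, and the ratios within clusters, were chosen after the data were seen. No paired analysis was possible because each genotype has 1 library. In elongating spermatids Psma7 and Psma8 lie within a few times the free RNA estimate.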
